A study of Homo sapiens with 44 samples.

Results

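The genes described here are 37 genes of glycolysis and of the response to hypoxia-inducible factor (HIF), chosen by symbol from the 33538 genes in the deposited tables. Of these, 23 take up glucose, break it down to lactate or regulate that flow, and 14 are HIF1A itself, a regulator of it, or a known target. All 37 were found and all passed the filter on low counts, which left 14469 genes to test. They were measured by RNA-seq in 44 libraries of OVCAR5, an established human line labelled as ovarian carcinoma, that carried a reporter of IFNγ (IFNy in the labels, interferon gamma) sensing and was CFP+. Whether the reporter line is 1 clone is not given in the sources used here. The cells were left unstimulated or were exposed without a break to 1 of 10 stimuli for 2, 6, 12 or 24 h, and each treatment and duration gave 1 library. IFNγ was given at 0.01, 1 or 100 ng/ml and TNFα (TNFa, tumor necrosis factor) at 0.1, 1 or 10 ng/ml. Supernatant (SN) of a co-culture of tumor cells with T cells was given at dilutions of 1/20000, 1/200 or 1/2, and in the tenth stimulus IFNγ at 100 ng/ml was combined with TNFα at 10 ng/ml, called the combination below. Every group shared the reporter line and a serum-containing IMDM medium, so the unstimulated cells carry the reporter too. The sources used here do not give the glucose, lactate, oxygen or cytokine content of the supernatant or of the cultures.

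Glycolysis turns glucose into pyruvate, which lactate dehydrogenase reduces to lactate or pyruvate dehydrogenase converts to acetyl-CoA inside the mitochondria. HIF is a pair of proteins whose alpha subunit, HIF1A being the best known, is marked for destruction by the prolyl hydroxylases EGLN1 and EGLN3 while oxygen is present, and it raises glucose transporters, most glycolytic enzymes and genes such as VEGFA when oxygen is low. HIF binds DNA at a short core, ACGTG or GCGTG. TNFα acts on genes mainly through NF-κB, which is known to raise HIF1A in several cell types.

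Of the 4 members with the largest called changes for which the RefSeq table gave a window, the promoters of 3 are shown, so that the letters HIF and NF-κB are known to bind can be looked for in them. Each is the reference sequence of GRCh38.p14 from 250 bases before to 50 bases after the listed start that lies nearest to the start of a principal transcript, read 5′ to 3′ on the gene's strand. Capitals mark the HIF core ACGTG or GCGTG on either strand (CACGT and CACGC are their reverse complements) and the NF-κB motif.
EGLN3: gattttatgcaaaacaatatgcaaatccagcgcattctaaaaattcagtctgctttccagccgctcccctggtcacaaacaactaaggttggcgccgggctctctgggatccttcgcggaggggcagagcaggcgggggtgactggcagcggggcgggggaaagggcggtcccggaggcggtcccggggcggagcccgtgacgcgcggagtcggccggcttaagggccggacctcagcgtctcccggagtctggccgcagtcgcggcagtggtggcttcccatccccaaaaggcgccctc
PFKFB3: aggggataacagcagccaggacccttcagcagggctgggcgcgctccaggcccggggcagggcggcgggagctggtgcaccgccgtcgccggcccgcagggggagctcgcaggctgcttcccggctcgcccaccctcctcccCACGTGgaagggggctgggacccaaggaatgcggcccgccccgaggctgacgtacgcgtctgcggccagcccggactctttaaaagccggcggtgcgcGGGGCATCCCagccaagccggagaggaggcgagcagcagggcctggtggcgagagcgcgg
ANGPTL4: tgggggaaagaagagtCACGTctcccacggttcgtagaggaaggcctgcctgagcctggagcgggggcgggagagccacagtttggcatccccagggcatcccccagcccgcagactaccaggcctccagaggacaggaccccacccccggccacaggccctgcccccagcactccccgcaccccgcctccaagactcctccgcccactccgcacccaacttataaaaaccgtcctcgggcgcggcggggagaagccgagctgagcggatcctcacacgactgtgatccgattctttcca
The EGLN3 window is chr14:33951025-33951324 on the minus strand, and the others lie on the plus strand at chr10:6202682-6202981 (PFKFB3, 1 of 2 windows listed for the gene) and chr19:8363905-8364204 (ANGPTL4). The window of the fourth, HK1, is not shown because its listed start lies 220 bases past that of the principal transcript, so that it does not hold the promoter of that transcript. In the PFKFB3 window ACGTG was found on both strands as the overlapping palindrome CACGTG, 108 bases before the start, and an NF-κB motif 10 bases before the start. The ANGPTL4 window held ACGTG once, and the EGLN3 window held no HIF core and no NF-κB motif.

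Over the members, 33 had a window (BNIP3L, NDRG1, SLC2A3 and VEGFA did not), and in 13 of the 33 the listed start was more than 100 bases from that of the principal transcript, so these counts describe the listed windows. ACGTG or GCGTG was present in 27 of the 33 (81.8%), against 56% of the windows of 14894 protein-coding genes. ACGTG alone was in 48.5% of the members and 23.5% of all genes, and GCGTG in 48.5% and 44.5%. The 6 members without either core were EGLN3, PFKM, PFKP, PGAM1, SLC16A3 and TPI1, with the listed start 450 bases from the principal one for PFKP and 1658 bases for PGAM1. The NF-κB motif was in 5 members (CA9, ENO1, PFKFB3, SLC16A3 and SLC2A1), or 15.2%, against 12.5% of all genes.

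The deposited tables held between 9586125 and 16270128 estimated counts per library. Epithelial markers were present in all 44 libraries, with KRT8 at 696 to 1552 TPM (transcripts scaled for gene length and to a fixed library total), and PAX8 was at 4.00 to 15.7 TPM. MSLN was at 0.391 to 4.10 TPM, whereas WT1 and MUC16 were at most 0.618 and 0.295 TPM. CD3E was at 0 in every library and the summed level of 12 T-cell markers was at most 1.13 TPM, so RNA from the co-cultured T cells was at or near 0. The summed epithelial markers were 3061 to 3355 TPM unstimulated, 1773 to 3171 TPM in supernatant 1/2 and 1905 to 3058 TPM in the combination, and their part in the results was not tested.

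In unstimulated cells the payoff-phase enzymes GAPDH, PKM and ENO1, together with LDHA, were among the most abundant members. Values are on the length-corrected TPM scale (mean ± SD over the 4 durations, n = 4). GAPDH stood at 3185 ± 107 TPM, PKM at 3055 ± 132 TPM, ENO1 at 2104 ± 151 TPM and LDHA at 1793 ± 238 TPM. ALDOA, of an earlier step, stood at 990.5 ± 53.1 TPM. The intervals of GAPDH and PKM overlapped, and so did those of TPI1 (822 ± 79.4 TPM) and PGK1 (811 ± 100.1 TPM). Where a step has several enzymes, 1 form dominated. HK1 at 43 ± 9.94 TPM lay above HK2 at 14.4 ± 4.33 TPM, PFKP at 226 ± 27.4 TPM above PFKM and PFKL, and the transporter SLC2A1 at 139 ± 21 TPM far above SLC2A3 at 0.494 ± 0.274 TPM. HIF1A itself was abundant at 186 ± 13.6 TPM, while CA9, ANKRD37, BNIP3 and SLC2A3 had means between 0.494 and 1.14 TPM, where few reads limit any comparison. ALDOA, ENO1, GAPDH, LDHA, PGAM1, PGK1, PKM, TPI1 and SLC2A3 have near-identical copies in the genome, and how the authors' counting split reads among copies is not given in the sources used here, so their levels carry that doubt.

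The combination raised most of these genes, and supernatant 1/2 raised fewer and lowered SLC2A1, the main glucose transporter. In the fits below, the effect of a treatment is its mean log2 fold change over the 4 durations against the unstimulated libraries of the same durations, given ± its standard error, and a gene is called higher or lower at a Benjamini-Hochberg adjusted p under 0.05 in edgeR's quasi-likelihood test over all genes. Since each treatment and duration was 1 library and separate cultures are not stated, p-values measure the spread of libraries around the fitted effects only. With the combination 29 of 37 members were higher, against 23.5% of all genes tested, and 1 was lower, against 22.4%. The higher members were 19 of 23 glycolytic genes, with a list median of 0.45, and 10 of 14 HIF genes, with a list median of 0.49, while the median of all genes was -0.02. With supernatant 1/2, 18 members were higher and 2 lower, against 22.6% and 20.8% of all genes. Those 18 were 12 glycolytic genes (list median 0.19) and 6 HIF genes (list median 0.07). Scaling by total counts instead of TMM moved the median of all genes to -0.20 in the combination and to -0.16 in supernatant 1/2. In supernatant 1/2 it gave 12 higher and 3 lower members. The higher ones were 6 glycolytic genes, down from 12, and 6 HIF genes, as many as before. The list medians there were 0.05 (glycolytic) and -0.07 (HIF). In the combination 22 members were higher, 15 of them glycolytic, and 2, PFKM and SLC2A1, were lower. The 8 libraries compared were also fitted alone, without slope terms and with far fewer libraries to estimate the spread. There the combination gave 3 members higher and 0 lower, near the 6.98% and 2.31% of all genes in that fit. Supernatant 1/2 gave 5 and 1, against 6.57% and 2.35%. In bulk RNA fewer cells of a kind and less RNA per cell cannot be told apart.

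**Figure D1:**
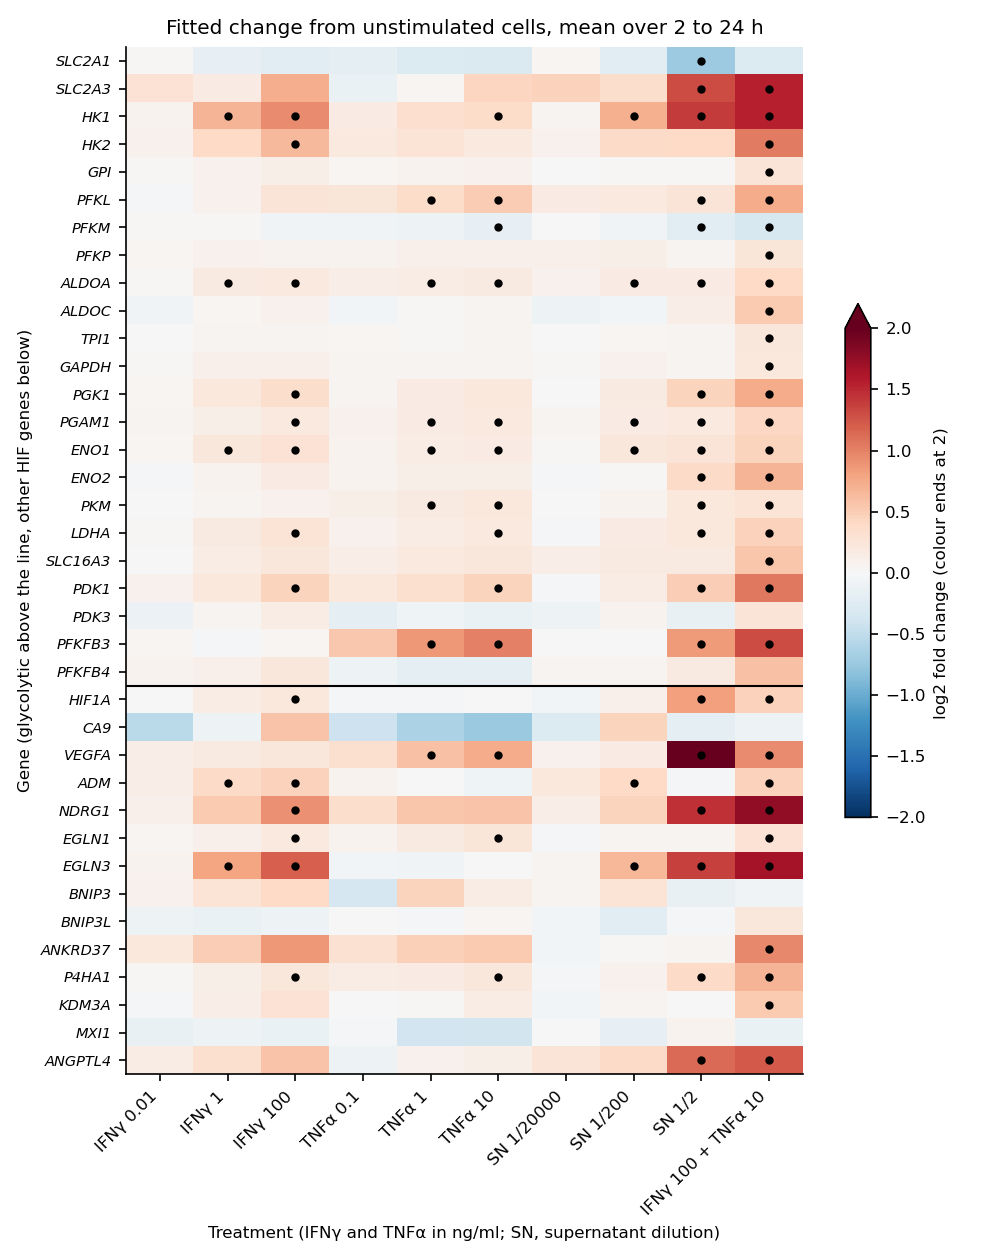
Fitted log2 fold change from unstimulated cells, averaged over 2 to 24 h, for the 37 members (rows, glycolytic genes above the line and other HIF genes below) under each of the 10 stimuli (columns, IFNγ and TNFα in ng/ml). The combination column is the most filled, with NDRG1 at 1.77 and EGLN3 at 1.66, and in the supernatant 1/2 column VEGFA reaches 2.04 while SLC2A1 is at -0.73.

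Single cytokines raised fewer members. IFNγ at 100 ng/ml raised 14 and lowered none, against 9.38% and 6.47% of all genes, and the 14 were 8 glycolytic and 6 HIF genes. TNFα at 10 ng/ml raised 12 and lowered 1, PFKM, against 14.3% and 10.1% of all genes, and 9 of the 12 were glycolytic. Under total counts these became 6 higher and 3 lower. Fitted on the libraries compared alone, again without slope terms, IFNγ gave 1 call, a higher one, against 1.54% of all genes higher and 0.353% lower. TNFα gave 2 higher there, against 6.75% and 3.67%. Over all 44 libraries without slope terms IFNγ gave 3 higher (5.88% and 2.34% of all genes) and TNFα 4 higher (10.4% and 6.11%). Smaller doses gave fewer calls. IFNγ at 1 ng/ml raised 5 members (5.54% of all genes were higher and 1.99% lower), namely HK1, ALDOA, ENO1, ADM and EGLN3, and supernatant 1/200 raised the same genes and PGAM1, 6 in all (7.12% and 3.73%). TNFα at 1 ng/ml raised 7 (11.5% and 7.42%), namely PFKL, ALDOA, PGAM1, ENO1, PKM, PFKFB3 and VEGFA, and under total counts 4 were higher and 1 lower. TNFα at 0.1 ng/ml gave 0 calls (4.02% of all genes were higher and 1.6% lower), with 5 members at an unadjusted p under 0.05 and 1 called by DESeq2. IFNγ at 0.01 ng/ml and supernatant 1/20000 gave 0 calls (0.0415% and 0.00691% of all genes were higher), with 0 at an unadjusted p under 0.05 and 0 called by DESeq2.

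Leaving out 1 library moved several of these counts. Each such fit kept the slope of each treatment on log2 duration, so its effect is read from the fitted line at the mean log2 duration. Leaving out a 2 h or 24 h library can move that value even where the library itself showed little change. A lost call thus does not show that the effect lay in that library. For IFNγ at 100 ng/ml the count was 4 without the 2 h library or without the unstimulated 2 h library, 6 without its 24 h library and 8 when the unstimulated 12 h library was left out. For TNFα at 10 ng/ml it was 6 without the 2 h or the 24 h library, 7 without the unstimulated 2 h library, and 8 without the unstimulated 12 h or 24 h library. The 7 calls of TNFα at 1 ng/ml fell to 2 without the unstimulated 2 h library and to 4 without the unstimulated 12 h or the TNFα 6 h library. IFNγ at 1 ng/ml had 3 calls without its 6 h or 12 h library or the unstimulated 2, 12 or 24 h library, and supernatant 1/200 had 3 without any 1 of its own libraries or the unstimulated 2, 12 or 24 h library. For the combination 19 members were higher and 3 lower without its 2 h library, and between 26 and 31 were higher in the other fits. For supernatant 1/2 the count of calls lay between 15 and 23.

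The response was late. At 2 h and 6 h the median log2 ratio of the glycolytic genes to the unstimulated library of the same duration was 0.03 and 0.11 in the combination, and at 12 h and 24 h it was 0.60 and 1.01. For the HIF genes the medians were 0.13, 0.03, 0.77 and 1.29. At 24 h 22 of 23 glycolytic genes and 14 of 14 HIF genes lay above 0, from PFKM at -0.63 to NDRG1 at 3.76. Fitted on the 2 h and 6 h libraries alone, the combination raised 6 members and lowered 1, against 7.75% and 3.93% of all genes, and fitted on the 12 h and 24 h libraries alone it raised 31 and lowered 1, against 21.7% and 20.6%. The early calls were EGLN3, HK1, PFKL, PFKFB3, NDRG1 and ENO1 upward and SLC2A1 downward. Supernatant 1/2 gave 5 and 2 early calls, against 7.1% and 3.09% of all genes, and 19 and 2 late calls, against 19.9% and 18.7%. Its list medians were 0.47 and 0.24 (glycolytic) and 0.56 and 0.68 (HIF) at 12 h and 24 h. With IFNγ at 100 ng/ml the early libraries gave 1 call, EGLN3 (0.84 ± 0.14), against 0.548% of all genes higher and 0.00703% lower, and the late ones 14 higher and 0 lower, against 7.85% and 5.14%. With TNFα at 10 ng/ml PFKFB3 (0.81 ± 0.13) and PFKL (0.55 ± 0.14) were higher early and ANGPTL4 (-0.63 ± 0.17) lower, against 4.38% and 0.949% of all genes. The late TNFα libraries gave 10 higher and 0 lower members, against 9.76% and 6.41%.

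**Figure D2:**
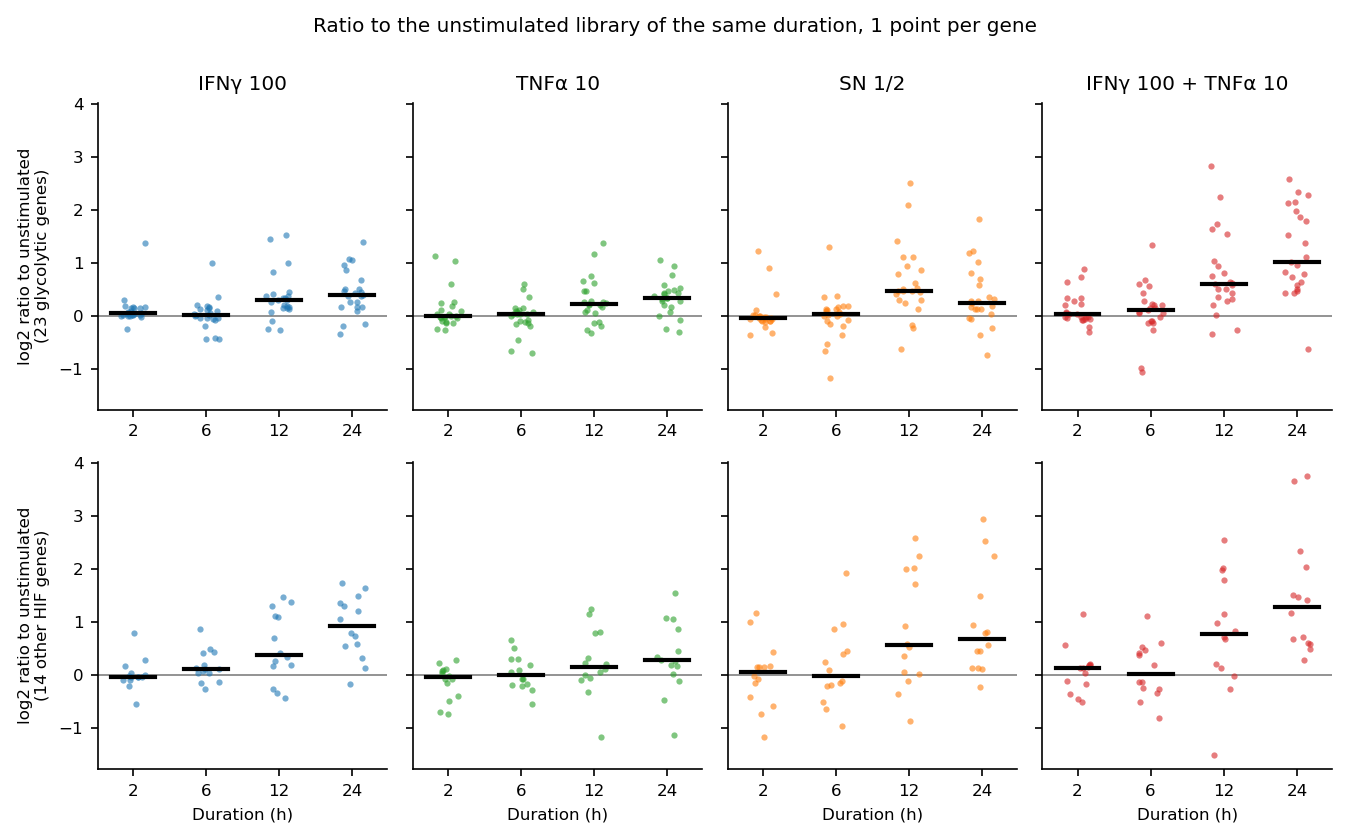
Log2 ratio of each member to the unstimulated library of the same duration, against duration in hours, for IFNγ 100 ng/ml, TNFα 10 ng/ml, supernatant 1/2 and the combination (columns), with glycolytic genes in the upper and HIF genes in the lower row and 1 point per gene. In the combination the glycolytic median moves from 0.03 at 2 h to 1.01 at 24 h and the HIF median from 0.13 to 1.29, and in supernatant 1/2 the glycolytic median is 0.47 at 12 h and 0.24 at 24 h.

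The first step, glucose uptake, showed its main transporter going down. SLC2A1 (GLUT1, ENSG00000117394, chromosome 1, 42925375 to 42959176 on GRCh38) stood at 336, 355, 301 and 241 CPM (counts scaled to the TMM-adjusted library total) at 2, 6, 12 and 24 h in unstimulated cells. In supernatant 1/2 it stood at 261, 157, 194 and 143 CPM, below the unstimulated library at every duration. With the combination it stood at 270.1, 169.9, 248 and 333 CPM, lowest at 6 h and above the unstimulated library at 24 h alone. SLC2A1 fell by 0.73 on the log2 scale in supernatant 1/2 (SE 0.13, adjusted p = 6.25e-05), and its change ran from -0.90 to -0.63 in the 8 fits that each left out 1 of the libraries compared. In the combination its mean change was -0.27 ± 0.13 (adjusted p = 0.0833), with -0.70 ± 0.17 in the 2 h and 6 h libraries (adjusted p = 0.0181). Scaled by total counts instead of TMM, the edgeR fit called SLC2A1 lower in the combination too (-0.45 ± 0.13, adjusted p = 0.00494). SLC2A3 (GLUT3), a transporter of high affinity, went the other way from a very low level. It was at 0.978, 2.20, 0.963 and 2.74 CPM unstimulated, 2.50, 2.51, 6.27 and 6.57 CPM in supernatant 1/2 and 1.74, 3.59, 7.92 and 11.3 CPM in the combination. Both strong stimuli lay above all unstimulated libraries at 12 h and 24 h, and of the earlier libraries the 6 h one of the combination did. Its fitted change was 1.55 ± 0.25 in the combination (adjusted p = 1.05e-05) and 1.30 ± 0.25 in supernatant 1/2 (adjusted p = 0.000109), and reads shared with its near-identical neighbour SLC2A14 cannot be told apart here.

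Both hexokinases, which trap glucose as glucose 6-phosphate, rose, HK1 early and HK2 late. HK1 (ENSG00000156515, chromosome 10, 69269984 to 69401884) stood at 139, 133, 113 and 100.2 CPM in unstimulated cells at the 4 durations. It stood at 186, 328, 481 and 355 CPM in supernatant 1/2 and at 177, 338, 536 and 504 CPM in the combination. IFNγ at 100 ng/ml gave 172, 264, 308 and 208 CPM. All 12 of these stimulated libraries lay above all 4 unstimulated ones. The change was 2.95-fold in the combination (log2 1.56 ± 0.12, adjusted p = 3.39e-10), 2.65-fold in supernatant 1/2 (adjusted p = 2.15e-09) and 1.92-fold with IFNγ (adjusted p = 3.46e-06), and none of these 3 calls was lost when 1 library was left out. TNFα at 10 ng/ml gave 130.5, 144, 179 and 171 CPM, with the 2 h library below the unstimulated one, a smaller rise (0.36 ± 0.12, adjusted p = 0.033) that lost its call without the TNFα 2 h or 24 h or the unstimulated 6 h or 12 h library (0.18 to 0.51 over the 8 fits). With IFNγ at 1 ng/ml HK1 was already at 166, 248, 249 and 129 CPM (log2 0.67 ± 0.12), and at 0.01 ng/ml it was at 138, 143, 131 and 103 CPM, with log2 ratios of -0.01, 0.10, 0.21 and 0.03 to the unstimulated libraries.

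HK2, the inducible form common in tumors, stood at 82.2, 96.2, 66.2 and 43.7 CPM unstimulated and at 80.1, 89.5, 206 and 261 CPM in the combination. Its 2 h and 6 h libraries overlapped with the unstimulated ones, and its 12 h and 24 h libraries were above all of them. With IFNγ at 100 ng/ml it stood at 92, 104, 133 and 115 CPM, and with supernatant 1/2 at 88.2, 60.7, 121 and 99.3 CPM. HK2 rose 2.05-fold in the combination (log2 1.03 ± 0.19, adjusted p = 0.000114) and 1.57-fold with IFNγ (log2 0.66 ± 0.19, adjusted p = 0.0191). The latter call was lost without the IFNγ 2 h or 24 h or the unstimulated 2, 12 or 24 h library (0.49 to 0.79). In supernatant 1/2 the value was 0.39 ± 0.19 (adjusted p = 0.103).

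**Figure D3:**
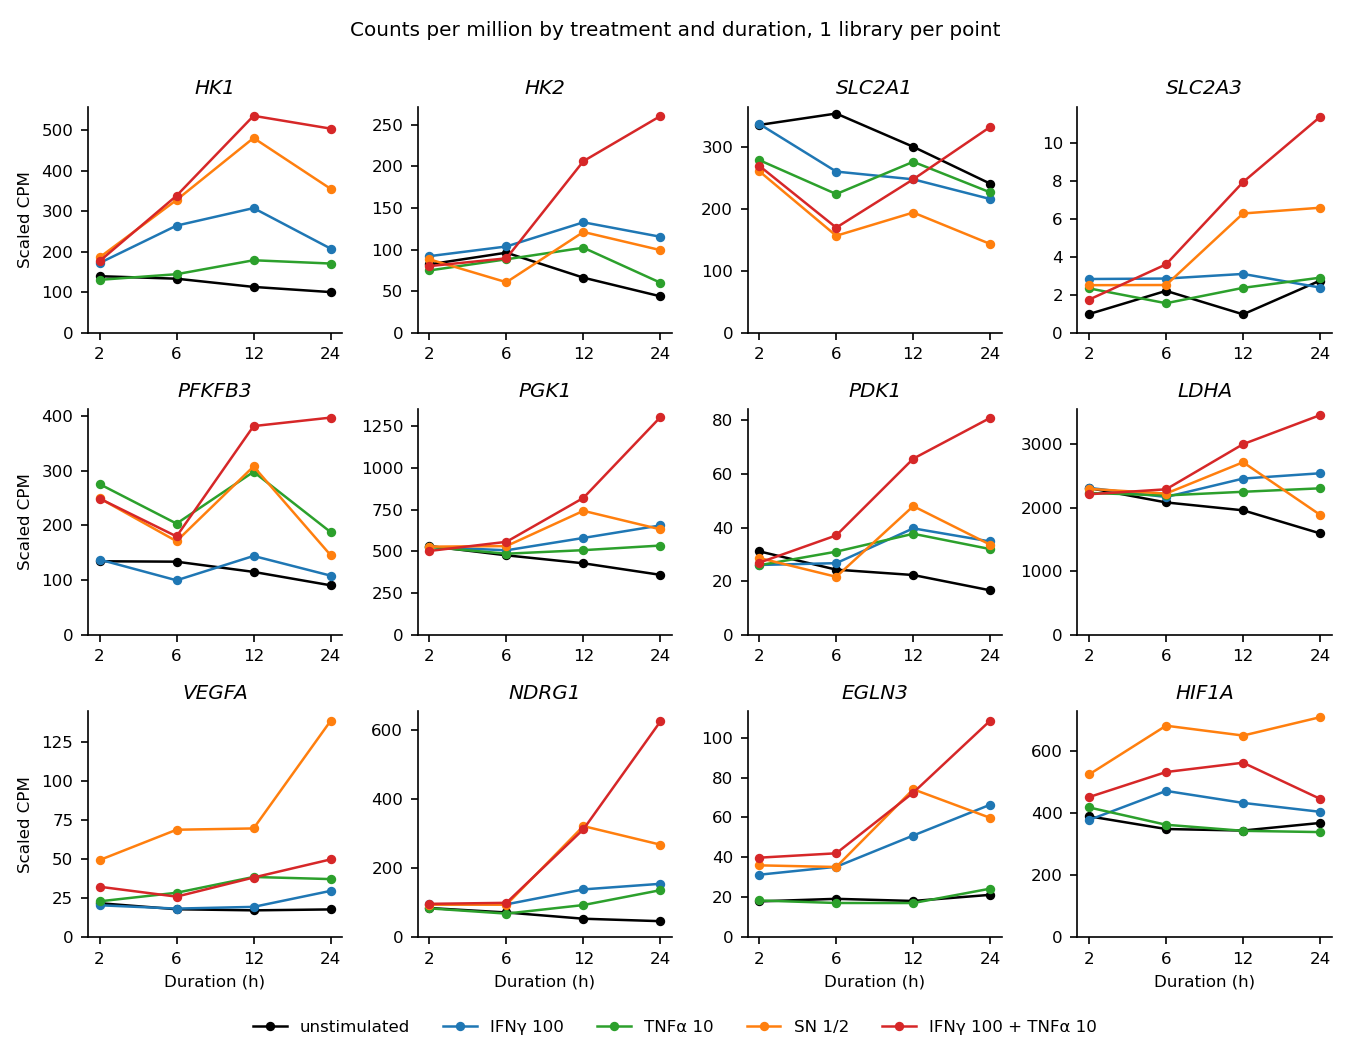
TMM-scaled CPM against duration in hours for 12 members in unstimulated cells and under IFNγ 100 ng/ml, TNFα 10 ng/ml, supernatant 1/2 and the combination, with 1 library per point. HK1 separates from the unstimulated line by 6 h (338 against 133 CPM in the combination), while HK2, PGK1, PDK1 and NDRG1 separate at 12 h and 24 h, and SLC2A1 in supernatant 1/2 stays below the unstimulated line.

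At the phosphofructokinase step, which commits sugar to glycolysis, the 3 isoforms moved apart. PFKL, the liver-type subunit, was at 60.6, 75.2, 81.4 and 89.6 CPM unstimulated and at 91.7, 107, 113 and 119.9 CPM with TNFα at 10 ng/ml. The combination gave 94.4, 111, 137 and 180.3 CPM. All 4 libraries of TNFα, and all 4 of the combination, lay above all 4 unstimulated ones. PFKL rose by 0.50 ± 0.10 with TNFα (adjusted p = 0.000288) and by 0.74 ± 0.10 in the combination (adjusted p = 4.79e-07). At 2 h TNFα at 0.1 ng/ml (88.5 CPM) and supernatant 1/20000 (85.5 CPM), neither of which gave a call among the members, stood nearly as high as these stimuli, and IFNγ at 0.01 ng/ml stood at 63.8 CPM. Its supernatant value of 0.26 ± 0.10 (adjusted p = 0.0301) lost its call without the unstimulated 2, 12 or 24 h or the supernatant 6 h or 12 h library (0.15 to 0.47). PFKM, the muscle-type subunit, fell from 73.8, 69.7, 62.7 and 69.4 CPM unstimulated to 72.4, 57.8, 49.2 and 44.9 CPM in the combination. The decrease grew with duration, and its mean was -0.32 ± 0.06 (adjusted p = 4.28e-05), with -0.22 ± 0.06 in supernatant 1/2 (adjusted p = 0.00254). PFKM also passed the test as lower with TNFα (-0.17 ± 0.06, adjusted p = 0.0317), a call lost without any 1 of 7 of the 8 libraries compared, all but the unstimulated 12 h one (-0.21 to -0.13). PFKP, the platelet-type subunit and the most abundant, was at 309, 341, 295 and 273 CPM unstimulated and 358, 354, 339 and 385 CPM in the combination, a small rise of 0.24 ± 0.05 (adjusted p = 0.0003) that lost its call without the combination 2 h library (0.14 to 0.30).

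PFKFB3 makes fructose 2,6-bisphosphate, the strongest activator of phosphofructokinase, and it followed TNFα. It was at 134, 134, 115 and 90.5 CPM unstimulated, and at 275, 203, 298 and 188 CPM with TNFα at 10 ng/ml. IFNγ at 100 ng/ml gave 138, 99.6, 144 and 108 CPM. The 4 TNFα libraries lay above all 4 unstimulated ones, and the IFNγ libraries overlapped with them. In the combination PFKFB3 was at 249, 179.8, 381 and 397 CPM and in supernatant 1/2 at 249.5, 171, 308 and 146 CPM, again above all unstimulated libraries. The changes were 1.01 ± 0.16 with TNFα (adjusted p = 6.55e-05), 1.31 ± 0.16 in the combination (adjusted p = 7.41e-07), 0.84 ± 0.16 in supernatant 1/2 (adjusted p = 0.000201) and 0.04 ± 0.16 with IFNγ (adjusted p = 0.917). TNFα at 0.1 ng/ml gave 231, 187, 211 and 92.4 CPM, above the unstimulated library by a log2 ratio of 0.78 at 2 h and 0.03 at 24 h. PFKFB4, a related enzyme, was at 13.8, 17.5, 21.2 and 20.5 CPM unstimulated and 14.4, 8.71, 37.3 and 90.9 CPM in the combination, below the unstimulated library at 6 h and far above it at 24 h. Its mean change did not pass the test (0.59 ± 0.28, adjusted p = 0.0882).

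Among the later steps, PGK1, the first ATP-forming kinase, changed most. It was at 532, 476, 428 and 359 CPM unstimulated, 528, 531, 742 and 632 CPM in supernatant 1/2 and 502, 557, 819.7 and 1303 CPM in the combination. At 2 h the 3 conditions lay close together, and at 24 h the combination library was the highest of all. PGK1 rose 1.68-fold in the combination (log2 0.75 ± 0.09, adjusted p = 1.24e-07) and 1.36-fold in supernatant 1/2 (adjusted p = 0.000193). The other abundant enzymes rose less, each called in the combination: PGAM1 by 0.42 ± 0.05, ENO1 by 0.44 ± 0.04, ALDOA by 0.39 ± 0.05, PKM by 0.27 ± 0.04, GPI by 0.26 ± 0.07, TPI1 by 0.23 ± 0.05 and GAPDH by 0.22 ± 0.04. Under total counts none of the called members changed sign, but GPI (0.08 ± 0.07), TPI1 (0.05 ± 0.05) and GAPDH (0.04 ± 0.03) were near 0 and no longer called, as was PFKP (0.06 ± 0.05). Among the HIF genes EGLN1 (0.11 ± 0.07), KDM3A (0.34 ± 0.15) and ANKRD37 (0.79 ± 0.37) lost their combination calls there too. ENO1 went from 2521, 2395, 2267 and 2096 CPM unstimulated to 2592, 2892, 3510.5 and 3705 CPM in the combination, with no overlap between the groups. The margin at 2 h was small, and IFNγ at 0.01 ng/ml stood at 2556 CPM there, above all unstimulated libraries too. The GPI call was lost without the unstimulated 2 h or the combination 2 h or 24 h library (0.08 to 0.32), and the TPI1 call without the combination 2 h library (0.15 to 0.26). The minor isoforms ALDOC (0.52 ± 0.13) and ENO2 (0.69 ± 0.15) were above the unstimulated library from 12 h on, reaching 76.4 CPM against 26.4 CPM and 199 CPM against 57.6 CPM at 24 h, and both calls were lost without the combination 2 h library (0.22 to 0.63 and 0.33 to 0.83).

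LDHA, which makes lactate, was at 2306, 2080.3, 1957 and 1594 CPM unstimulated, a decline over the day, and at 2209, 2287, 2996 and 3452 CPM in the combination. In supernatant 1/2 it was at 2293, 2219.8, 2712 and 1886 CPM, highest at 12 h. The rise was 0.45 ± 0.07 in the combination (adjusted p = 2.11e-06) and 0.20 ± 0.07 in supernatant 1/2 (adjusted p = 0.0131). The supernatant call was lost without its 12 h or the unstimulated 2, 12 or 24 h library (0.12 to 0.29). SLC16A3 (MCT4), which exports lactate, was at 208, 277, 264 and 240.0 CPM unstimulated and 261, 251, 399 and 617 CPM in the combination, outside the unstimulated range at 12 h and 24 h alone. Its mean rise was 0.55 ± 0.13 (adjusted p = 0.00103), lost without the combination 2 h library (0.22 to 0.67), and it was not called in supernatant 1/2 (0.18 ± 0.13, adjusted p = 0.263).

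Of the kinases that switch off pyruvate dehydrogenase, the member PDK1 rose while 2 relatives outside the list fell. PDK1 was at 31.1, 24.3, 22.3 and 16.6 CPM unstimulated and 26.9, 37.1, 65.7 and 80.9 CPM in the combination. With IFNγ at 100 ng/ml it was at 26.1, 26.7, 39.7 and 34.8 CPM and with TNFα at 10 ng/ml at 26, 31, 37.7 and 32 CPM. The 12 h and 24 h libraries of all 3 stimuli lay above all unstimulated libraries, and their 2 h libraries below the unstimulated 2 h library. The 2 h library of every other stimulus was below it too, with log2 ratios of -0.21 for IFNγ 0.01 ng/ml and -0.42 for supernatant 1/20000. PDK1 rose 2.09-fold in the combination (log2 1.06 ± 0.13, adjusted p = 2.06e-07), by 0.45 ± 0.13 with IFNγ (adjusted p = 0.0196), by 0.45 ± 0.13 with TNFα (adjusted p = 0.0138) and by 0.50 ± 0.13 in supernatant 1/2 (adjusted p = 0.00341). Only the combination call held without any 1 library. The IFNγ call was lost without its 2, 12 or 24 h or the unstimulated 2 h or 12 h library (0.35 to 0.49), the TNFα call without its 2 h or the unstimulated 2 h or 12 h library (0.40 to 0.49) and the supernatant call without its 2 h library (0.28 to 0.64). PDK3 was called in neither strong stimulus (0.26 ± 0.14 in the combination, -0.14 ± 0.14 in supernatant 1/2). PDK4, a kinase known to rise in fasting, fell, with log2 changes of -2.15 ± 0.22 in the combination and -1.20 ± 0.19 in supernatant 1/2, and so did PDK2 with -1.04 ± 0.13 and -0.62 ± 0.12. PDP1, a phosphatase that switches pyruvate dehydrogenase on, rose by 1.23 ± 0.11 and 0.78 ± 0.11.

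**Figure D4:**
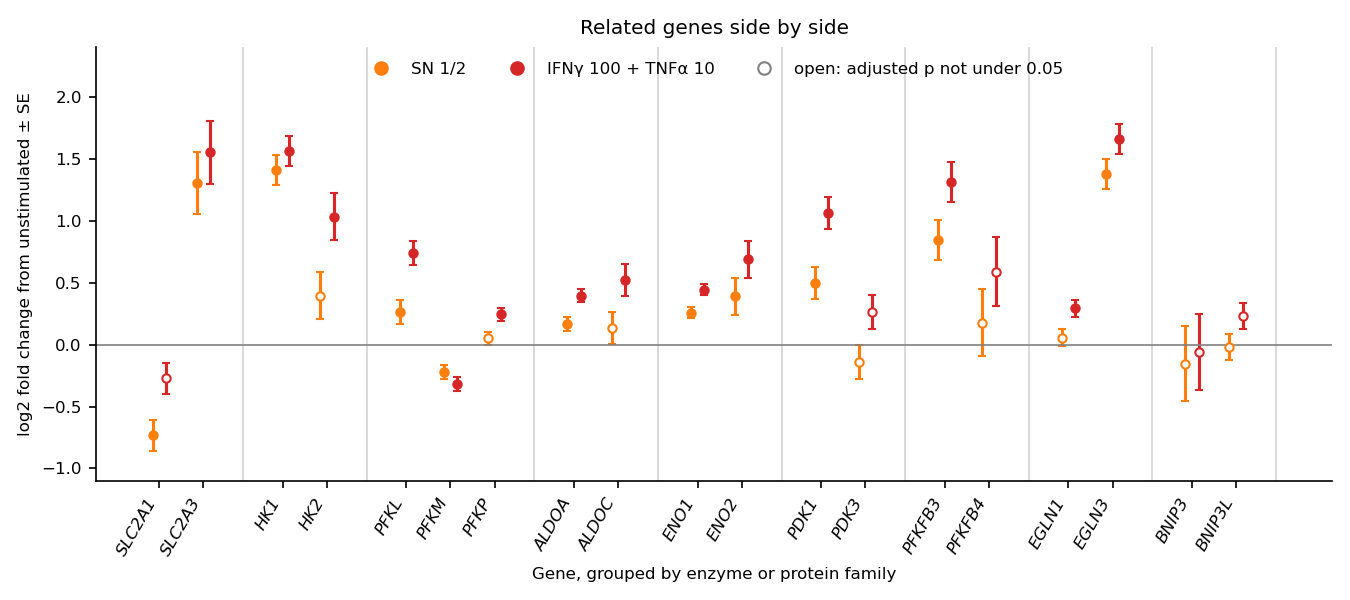
Fitted log2 fold change from unstimulated cells, with standard errors, for 9 families of related members in the most concentrated supernatant and in the combination. SLC2A1 lies below 0 and SLC2A3 above it, PFKL lies above and PFKM below, and of the oxygen sensors EGLN3 (1.66 in the combination) exceeds EGLN1 (0.29).

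Among the regulators of HIF, HIF1A (ENSG00000100644, chromosome 14, 61695513 to 61748259) rose most with the supernatant. Unstimulated cells had 389.5, 348, 344 and 368 CPM, and supernatant 1/2 gave 524, 682, 649.8 and 709 CPM. The combination gave 451, 532, 562 and 446 CPM. All libraries of both stimuli were above all unstimulated ones, and at each duration the supernatant library was above that of the combination. HIF1A rose 1.76-fold in supernatant 1/2 (log2 0.82 ± 0.07, adjusted p = 5.62e-10) and 1.37-fold in the combination (adjusted p = 7.97e-06), calls that no single library ended. TNFα alone left it at 418, 362, 343 and 339 CPM (0.01 ± 0.07). IFNγ at 100 ng/ml gave a mean change of 0.22 ± 0.07 (adjusted p = 0.0402), lost without the IFNγ or the unstimulated library of 6 h or 12 h (0.16 to 0.32). The antisense genes HIF1A-AS1 and HIF1A-AS2 overlap it, as EGLN3-AS1 overlaps EGLN3, and the strand the authors counted is not given in the sources used here. mRNA levels do not show how much HIF1A protein there was.

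EGLN3, the oxygen sensor that is itself a HIF target, followed IFNγ. It was at 17.9, 19.2, 18.1 and 21.2 CPM unstimulated and 31.3, 35.3, 51 and 66.4 CPM with IFNγ at 100 ng/ml. Supernatant 1/2 gave 36, 35.2, 74.1 and 59.8 CPM and the combination 39.8, 42, 72.5 and 109 CPM. All 12 stimulated libraries lay above all 4 unstimulated ones, from 2 h on. TNFα at 10 ng/ml left it at 18.4, 17.1, 17.1 and 24.3 CPM, which overlapped with the unstimulated range. EGLN3 rose 2.30-fold with IFNγ (log2 1.2 ± 0.12, adjusted p = 3.79e-08), 2.59-fold in supernatant 1/2 (adjusted p = 8.56e-10) and 3.16-fold in the combination (adjusted p = 2.15e-11), and by 0.00 ± 0.13 with TNFα. The dose series was graded, with 0.07 ± 0.13 at 0.01 ng/ml of IFNγ (not called), 0.79 ± 0.13 at 1 ng/ml (adjusted p = 6.84e-05) and 0.66 ± 0.13 in supernatant 1/200 (adjusted p = 0.000727). EGLN1, the main oxygen sensor in most cells, was at 84.4, 73.5, 85.1 and 75.8 CPM unstimulated and 99.1, 90.9, 92.4 and 92.6 CPM with TNFα at 10 ng/ml, above the unstimulated library at each duration. Its changes were 0.24 ± 0.07 with TNFα (adjusted p = 0.00856) and 0.29 ± 0.07 in the combination (adjusted p = 0.000614), the TNFα call being lost without the TNFα 6 h or the unstimulated 2 h or 24 h library (0.19 to 0.28).

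The secreted HIF targets differed among themselves. VEGFA, the growth factor for blood vessels (ENSG00000112715, chromosome 6, 43770184 to 43786487), was at 21.7, 17.9, 17.2 and 17.8 CPM unstimulated and 49.4, 68.9, 69.7 and 139 CPM in supernatant 1/2. The combination gave 32.3, 26, 38.2 and 49.9 CPM and TNFα at 10 ng/ml 22.9, 28.5, 38.6 and 37.2 CPM. Every supernatant and combination library was above every unstimulated one, and at each duration the supernatant library was the highest. VEGFA rose 4.11-fold in supernatant 1/2 (log2 2.04 ± 0.15, adjusted p = 3.94e-11), 1.93-fold in the combination (log2 0.95 ± 0.15, adjusted p = 1.66e-05) and 1.68-fold with TNFα (log2 0.75 ± 0.15, adjusted p = 0.000717), with 0.22 ± 0.16 under IFNγ at 100 ng/ml (adjusted p = 0.402). It was 1 of the members already higher in the early supernatant libraries (1.57 ± 0.24, adjusted p = 0.000935).

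ANGPTL4, a secreted inhibitor of lipoprotein lipase, was at 10.2, 13.9, 7.70 and 5.21 CPM unstimulated, 11.3, 12.9, 37.3 and 25.5 CPM in supernatant 1/2 and 9.36, 7.81, 31.9 and 67.9 CPM in the combination. The 12 h and 24 h libraries of both stimuli were above all unstimulated ones and the earlier ones were not. Its mean change was 1.23 ± 0.29 in the combination (adjusted p = 0.00135) and 1.14 ± 0.28 in supernatant 1/2 (adjusted p = 0.00216). The first call was lost without the combination 2 h library (0.33 to 1.57) and the second without the unstimulated 2 h library (0.84 to 1.40). These values are read from the fitted line, and the combination 2 h library itself lay below the unstimulated one (9.36 against 10.2 CPM). ADM, a vasodilator peptide, was at 64.6, 40.6, 30.1 and 25.3 CPM unstimulated, a steep decline over the day. IFNγ at 100 ng/ml gave 62.7, 44.2, 49 and 53.1 CPM and the combination 57.3, 33.6, 48.2 and 72.7 CPM. From 12 h on both stayed above the unstimulated libraries of the same durations, and at 2 h both were below. ADM rose by 0.46 ± 0.11 with IFNγ (adjusted p = 0.00454) and 0.46 ± 0.11 in the combination (adjusted p = 0.00155), calls lost without the unstimulated 2 h library or the 2 h library of the stimulus, and for the combination without its 24 h library too (0.34 to 0.53 and 0.14 to 0.58).

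NDRG1, a stress-induced protein that is a much-used marker of hypoxia, had the largest rise in the combination. It stood at 84, 71.2, 53.1 and 46 CPM unstimulated and at 96.2, 99.1, 312 and 624 CPM in the combination. Supernatant 1/2 gave 93.8, 93.7, 321 and 267 CPM and IFNγ at 100 ng/ml 94.4, 94.7, 138 and 154 CPM. All these stimulated libraries were above all unstimulated ones, those of 2 h and 6 h by a small margin and those of 12 h and 24 h by a wide one. At 2 h supernatant 1/20000 (92.8 CPM) and IFNγ at 0.01 ng/ml (87.4 CPM) were above all unstimulated libraries too. Neither of these doses gave a call among the members. NDRG1 rose 3.42-fold in the combination (log2 1.77 ± 0.22, adjusted p = 7.24e-07), 2.75-fold in supernatant 1/2 (adjusted p = 1.06e-05) and 1.88-fold with IFNγ (adjusted p = 0.00472). The IFNγ call was lost without its 2 h or the unstimulated 2 h library (0.75 to 1.04).

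Most of the remaining HIF targets have cell-internal roles. P4HA1, a subunit of collagen prolyl hydroxylase, was at 94.3, 76.8, 78.9 and 84.6 CPM unstimulated and 97.4, 103, 141 and 225 CPM in the combination, all higher than the unstimulated libraries. TNFα at 10 ng/ml gave 90.1, 88.3, 99.1 and 116 CPM, below the unstimulated library at 2 h and above it later. Its changes were 0.68 ± 0.07 (adjusted p = 2.60e-09) and 0.23 ± 0.07 (adjusted p = 0.0137), the latter lost without the TNFα or the unstimulated library of 2 h or 24 h (0.21 to 0.24). KDM3A, a histone demethylase, rose by 0.52 ± 0.16 in the combination (adjusted p = 0.00837), lost without its 2 h library (0.49 to 0.61), and was at 0.00 ± 0.15 in supernatant 1/2. ANKRD37 had 0.602, 1.39, 0.525 and 0.618 CPM unstimulated and 0.675, 1.26, 2.25 and 3.08 CPM in the combination, a call at a very low level (0.97 ± 0.37, adjusted p = 0.0329) that was lost without the unstimulated 2 h or 12 h or the combination 2 h or 24 h library (0.67 to 1.34). The mitophagy receptors BNIP3 (-0.06 ± 0.31) and BNIP3L (0.23 ± 0.10), the MYC antagonist MXI1 (-0.13 ± 0.14) and the carbonic anhydrase CA9 (-0.10 ± 0.43) did not pass the test in the combination, and none of the 4 did in supernatant 1/2. CA9, a classic hypoxia marker, was at 0.196 to 2.20 CPM over all 44 libraries.

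IFNγ and TNFα at their highest doses were also compared with each other. Of the members, 6 were higher with IFNγ and 3 with TNFα, against 11.1% and 13.4% of all genes. EGLN3 (1.2 ± 0.13, adjusted p = 3.47e-08), HK1 (0.58 ± 0.12, adjusted p = 0.000724) and ADM (0.55 ± 0.11, adjusted p = 0.000553) were higher with IFNγ, and PFKFB3 (-0.97 ± 0.16, adjusted p = 7.99e-05) was lower, in all 8 fits without 1 library. The other calls were lost without 1 library or more. Toward IFNγ they were HIF1A (0.21 ± 0.07, lost without the 6 h or 12 h library of either cytokine, 0.16 to 0.32), CA9 (1.33 ± 0.44, lost without the IFNγ 2 h or 12 h or the TNFα 2, 12 or 24 h library, 0.79 to 1.85) and ENO1 (0.12 ± 0.04, lost without the IFNγ 2 h or 24 h or the TNFα 6 h or 12 h library, 0.08 to 0.18). Toward TNFα they were VEGFA (-0.52 ± 0.15, lost without the 12 h library of either, -0.69 to -0.43) and PKM (-0.12 ± 0.04, lost without the IFNγ 6 h or 12 h or the TNFα 2 h or 24 h library, -0.18 to -0.07). The count was 5 without the 12 h library of either cytokine. For CA9 the IFNγ libraries stood at 0.513, 0.813, 2.06 and 2.20 CPM and the TNFα libraries at 0.431, 0.946, 0.295 and 0.271 CPM, near the limit of detection.

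Whether the combination exceeded the sum of the single effects on the log2 scale was tested as an interaction. None of the 37 members passed (0.352% of all genes were higher than the sum and 0.173% lower), with 3 at an unadjusted p under 0.05, EGLN3 (0.46 ± 0.18), P4HA1 (0.23 ± 0.10) and HIF1A (0.23 ± 0.10), and 0 calls by DESeq2. The interaction values ran from -0.08 to 0.55 for the glycolytic genes and from -0.61 to 0.54 for the HIF genes. A p over the threshold does not show that the effects add up exactly, and the estimate for HK2, for example, was 0.18 ± 0.27. Without the combination 24 h library 1 member was called. A mean over all durations can hide a late excess, and the fit on the 12 h and 24 h libraries alone gave 0 calls among the members.

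Supernatant 1/2 and the combination differed in 19 members, most of them glycolytic. Against the combination, 17 members were lower in the supernatant, 13 of them glycolytic, and 2 were higher, against 3.95% and 4.51% of all genes. The 2 higher were VEGFA (1.09 ± 0.14, adjusted p = 2.42e-05) and HIF1A (0.36 ± 0.07, adjusted p = 0.00221), the latter lost without the combination 2 h library (0.23 to 0.43). The lower ones included HK2 (-0.64 ± 0.19), PDK1 (-0.57 ± 0.13), ADM (-0.51 ± 0.11), PFKL (-0.48 ± 0.10) and SLC2A1 (-0.46 ± 0.13), and each of these 5 lost its call without the combination 2 h library. At 24 h, PGK1 was at 632 CPM in the supernatant and 1303 CPM in the combination, LDHA at 1886 and 3452 CPM, HK2 at 99.3 and 261 CPM, and SLC2A1 at 143 and 333 CPM. These calls depended on single libraries, and the fits without 1 library kept the slope on duration. A lost call therefore does not place the difference in the library left out. At 2 h HK2, for example, stood at 88.2 CPM in the supernatant and 80.1 CPM in the combination. The count of 19 calls was 1 without the combination 2 h library, 5 without the combination 24 h library, 8 without the supernatant 2 h library and 9 without the supernatant 24 h library, and 0 members were called from the 2 h and 6 h libraries alone.

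The growth of the effects with duration was tested as a slope per doubling of duration, against the unstimulated libraries. In the combination 23 members had a rising slope and 1, PFKM, a falling one, against 11.1% and 10.5% of all genes, with list medians of 0.29 (glycolytic) and 0.33 (HIF). The steepest were ANGPTL4 (1.19 ± 0.22), NDRG1 (1.04 ± 0.16), HK2 (0.78 ± 0.14) and PDK1 (0.72 ± 0.10). In supernatant 1/2, 10 members had a rising slope and 0 a falling one, against 8.34% and 7.91%, and with IFNγ at 100 ng/ml 6 and 0, against 2.52% and 0.912%. TNFα at 10 ng/ml gave 0 calls (1.47% of all genes were rising and 1.22% falling), with 11 members at an unadjusted p under 0.05 and 1 called by DESeq2. The count for the combination was 15 without its 24 h or the unstimulated 2 h library. For the supernatant it was 5 without its 2 h library, and 1 when the unstimulated 2 h library was left out. For IFNγ it was 0 without its 24 h or the unstimulated 2 h library, 1 without the unstimulated 24 h library and 2 without its 2 h library.

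The slopes were measured against unstimulated cells whose own levels declined. In the 12 libraries without stimulus or at the lowest doses (unstimulated, IFNγ 0.01 ng/ml and supernatant 1/20000), 17 of 36 members fell with culture time and 5 rose, against 21.5% and 23.4% of 13812 genes. CA9 was too low to be tested. From the 4 unstimulated libraries alone, 5 members were called lower and 0 higher, against 2.79% and 3.38% of all genes. Of the 17, 13 were glycolytic, and the others were VEGFA, ADM, NDRG1 and ANGPTL4. The log2 change per doubling of duration was -0.40 ± 0.02 for ADM (adjusted p = 3.08e-07), -0.24 ± 0.02 for NDRG1 (adjusted p = 1.21e-05), -0.23 ± 0.06 for HK2 (adjusted p = 0.0116) and -0.14 ± 0.03 for SLC2A1 (adjusted p = 0.00439). For ANGPTL4 it was -0.24 ± 0.08 (adjusted p = 0.0334), a call lost without the 24 h library of any of the 3 treatments (-0.29 to -0.19). PFKFB4 rose by 0.19 ± 0.03 (adjusted p = 0.00123), and PFKL, ENO2, PDK3 and EGLN3 rose by between 0.06 and 0.13, calls that were lost without the unstimulated 24 h library and some others (0.07 to 0.13, 0.04 to 0.06, 0.10 to 0.16 and 0.05 to 0.07). With IFNγ at 100 ng/ml LDHA stood at 2309, 2166, 2455 and 2538 CPM, with little change, while the unstimulated level went from 2306 to 1594 CPM. The sample indices in the deposited library names were reused between the 2 h and 6 h libraries and the 12 h and 24 h libraries but not within either set, and the labels do not give the sequencing pool of a library, so a difference in pool between these sets and culture time cannot be told apart. Treated and unstimulated libraries of 1 duration shared a set.

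**Figure D5:**
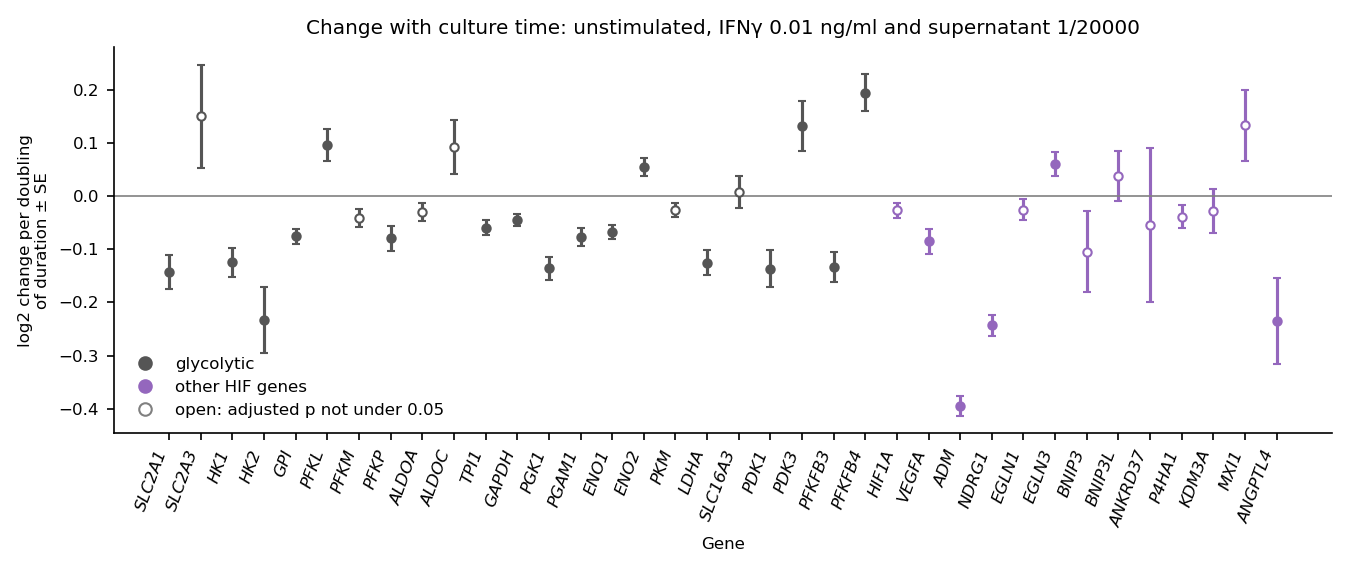
Fitted log2 change per doubling of duration, with standard errors, for 36 members in the 12 libraries of unstimulated cells, IFNγ 0.01 ng/ml and supernatant 1/20000. ADM at -0.40, NDRG1 at -0.24 and HK2 at -0.23 fall most, and PFKFB4 at 0.19 rises most.

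Other genes of both pathways were counted from lists chosen outside the members. Of 32 tested further genes of glycolysis and pyruvate handling, 9 were higher and 10 lower in the combination (list median -0.01), against 23.5% and 22.4% of all genes, and 8 and 7 in supernatant 1/2 (0.02), against 22.6% and 20.8%, so both counts lay near the share over all genes. Besides the pyruvate dehydrogenase regulators above, the phosphatase PDP2 fell, with log2 changes of -0.87 ± 0.11 in the combination and -0.56 ± 0.11 in supernatant 1/2. PFKFB2, a relative of PFKFB3, fell too, with -0.77 ± 0.08 and -0.71 ± 0.08. Of 49 tested further HIF pathway genes and targets, 23 were higher and 8 lower in the combination (0.36), and 17 and 10 in supernatant 1/2 (0.11), beside the same shares of all genes. The transcriptional repressor BHLHE40 rose by 1.81 ± 0.14 and 1.52 ± 0.14, and STC1, a secreted glycoprotein, by 1.86 ± 0.21 and 1.23 ± 0.21. EFNA1, an ephrin ligand, rose by 2.03 ± 0.38 and 1.19 ± 0.40, whereas PPP1R3C, a glycogen-targeting phosphatase subunit, fell, with -1.76 ± 0.14 and -2.0 ± 0.14.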

How the data were processed

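RNA was measured in 44 libraries of OVCAR5 cells, 1 for each of 11 treatments at 4 durations. Per the labels' protocols, libraries were made from total RNA with a kit for stranded mRNA and read on a HiSeq instrument. The deposited tables give, per gene, expected counts and TPM under the column names that Salmon writes, per the file headers. The submitters' processing notes name Salmon, STAR, Trim Galore, UMI-tools, SAMtools, Picard, StringTie, bedtools, FastQC, DESeq2, Cell Ranger and GRCh38, but no versions, roles or strand setting. Of 33538 genes, 33113 were named from a gene name table and 343 from GENCODE v29.

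The expected counts deposited by the authors were rounded to whole numbers. Tests used edgeR 4.0.16 (robust quasi-likelihood, TMM factors 0.896 to 1.081, filterByExpr with a minimum count of 10) in R 4.3.3. The model had terms for duration and treatment, with 1 slope per treatment on log2 duration, over all 44 libraries with 20 residual degrees of freedom, and p-values were adjusted by Benjamini-Hochberg over 14469 genes. Culture time was fitted on 12 libraries (8 residual degrees of freedom). Per-library values are TMM-scaled CPM, and the authors' TPM served for levels between genes and, as log2(TPM + 1) for genes with a mean TPM of at least 1, for limma 3.58.1. DESeq2 1.42.0 and the other alternatives are given at the end. The fitting code was tested on simulated data. The median biological coefficient of variation was 7.49%, and every pair of libraries differed by more than sampling noise (lowest chi-square per degree of freedom 1.51). All 37 members are named. Full values are given for up to 6 members per list with the largest called change in the combination or supernatant 1/2, and up to 3 called in IFNγ 100 ng/ml, TNFα 10 ng/ml or culture time. Isoforms of 1 step are set side by side, and LDHA, SLC16A3 and CA9 were given per-library values after these had been seen. The members, lists and comparisons were chosen with earlier results of these data known. Some genes that the named-gene rule or the check of the stimuli would include are not reported here.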

Additional observations from a re-analysis of the deposited data

Results flagged for a closer look

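Of 148 groups of 4 durations, formed from the log2 ratios to the unstimulated library of 37 members in 4 treatments, 4 held a library far from the other 3 (its gap to the nearest one exceeded Dixon's 95% limit for 4 values), where chance alone flags about 1 in 20 groups. They were GPI and TPI1 in supernatant 1/2 at 12 h, with ratios of 0.30 and 0.29, HIF1A in supernatant 1/2 at 2 h, with 0.43, below its later ratios, and EGLN1 in the combination at 24 h, with 0.61.

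The effect of a stimulus differed between durations for 40 pairs of a member and a treatment, by the test of the slope in edgeR's quasi-likelihood fit. Values are log2 changes of the effect per doubling of duration. With IFNγ at 100 ng/ml they were PGK1 (0.24), PGAM1 (0.15), ENO1 (0.13), LDHA (0.18), PDK1 (0.40) and ADM (0.32). In supernatant 1/2 they were HK1 (0.44), PGK1 (0.26), PGAM1 (0.13), ENO1 (0.11), PKM (0.11), PDK1 (0.39), VEGFA (0.47), ADM (0.28), NDRG1 (0.78) and ANGPTL4 (0.71). In the combination they were HK1 (0.59), HK2 (0.78), GPI (0.21), PFKM (-0.16), ALDOA (0.15), ALDOC (0.43), TPI1 (0.18), GAPDH (0.14), PGK1 (0.54), PGAM1 (0.29), ENO1 (0.23), ENO2 (0.54), PKM (0.12), LDHA (0.33), SLC16A3 (0.30), PDK1 (0.72), PFKFB3 (0.39), PFKFB4 (0.66), ADM (0.48), NDRG1 (1.04), EGLN3 (0.37), P4HA1 (0.38), KDM3A (0.47) and ANGPTL4 (1.19). The only negative one was PFKM in the combination. When the unstimulated 2 h library was left out, the number of such members went from 24 to 15 in the combination, from 10 to 1 in supernatant 1/2 and from 6 to 0 with IFNγ.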

How the results depend on the processing

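Numbers below are counts of members called, and alternatives not named for a comparison left its count within 1.5 times. DESeq2 kept 178 of the 185 calls and gave 1 call for TNFα 0.1 ng/ml and 1 for the TNFα slope. Without the filter on low counts 160 calls were kept, and IFNγ 1 ng/ml had 3. Scaling by total counts kept 135, with 3 for IFNγ 1 ng/ml, 9 for IFNγ 100 ng/ml, 1 for its slope and 6 for the supernatant 1/2 slope. Limma on log2(TPM + 1) kept 93 of 182 (2 changed sign), with 3 for IFNγ 1 ng/ml, 6 for IFNγ 100 ng/ml, 2 for TNFα 1 ng/ml, 5 for TNFα 10 ng/ml, 11 for supernatant 1/2, 5 between IFNγ and TNFα, 2 between supernatant and combination, 1 for the IFNγ slope, 4 for the supernatant slope and 12 for culture time. Without slope terms 61 of 123 were kept, with 1 for IFNγ 1 ng/ml, 3 for IFNγ 100 ng/ml, 3 for TNFα 1 ng/ml, 4 for TNFα 10 ng/ml, 1 for supernatant 1/200, 13 for supernatant 1/2 and 3 for each direct comparison, while the combination had 31. Fitted on the libraries compared alone, without slope terms and with fewer samples, 20 of 122 were kept. The counts were 1, 1, 2, 2, 1, 6 and 3 in the same order of treatments up to the combination. They were 5 between the cytokines and 1 between supernatant and combination. The 2 h and 6 h libraries alone kept 19 of 123, with 1, 1, 1, 3, 0, 7 and 7 in that order, 1 for TNFα 0.1 ng/ml, 3 and 0 for the direct comparisons, and 21 changes of sign. Among the genes with full values these were HK1 with TNFα 10 ng/ml (-0.004), PDK1 with IFNγ 100 ng/ml (-0.0793) and supernatant 1/2 (-0.1486), HK2 (-0.0864), ANGPTL4 (-0.4881), ANKRD37 (-0.0408) and ADM (-0.2339) in the combination, ANGPTL4 in supernatant 1/2 (-0.0009), and PGK1 between supernatant and combination (0.0007). The 12 h and 24 h libraries alone kept 96 of 123 with no change of sign, with 3 for IFNγ 1 ng/ml, 3 for TNFα 1 ng/ml, 5 between the cytokines and 12 between supernatant and combination. The unstimulated libraries alone gave 5 for culture time. The causes were not tested.

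Leaving out 1 library at a time gave 3 to 5 for IFNγ 1 ng/ml, 4 to 13 for IFNγ 100 ng/ml, 0 to 2 for TNFα 0.1 ng/ml, 2 to 7 for TNFα 1 ng/ml, 6 to 13 for TNFα 10 ng/ml, 3 to 5 for supernatant 1/200, 15 to 23 for supernatant 1/2 and 22 to 32 for the combination. The direct comparisons gave 5 to 8 and 1 to 25, the interaction 0 to 1, the slopes 0 to 6 (IFNγ), 0 to 0 (TNFα), 1 to 14 (supernatant) and 15 to 25 (combination), and culture time 16 to 22. Of 185 calls, 104 were lost without 1 library or more. No paired analysis was possible because the labels give no replicate numbers, and duration is already a term of the model. With 1 library per treatment and duration, a difference at a single duration has no replicate check, and the values of CA9, ANKRD37, BNIP3 and SLC2A3 rest on few reads at this depth.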
